A study of Mus musculus with 12 samples.

Results

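The T-box factors of the heart are 6 genes, Tbx1, Tbx2, Tbx3, Tbx5, Tbx18 and Tbx20, members of the T-box family, and their RNA levels were described across embryonic mouse hearts and heart organoids. They were taken by symbol from the deposited table, in which each of the 6 names matched 1 of 26190 genes. The series holds RNA-seq libraries of 4 groups with 3 replicates each, all labelled as strain C57BL/6. In the embryo these are atria and ventricles of hearts at E11.5 (E11.5H). In culture they are the atrium-like and the ventricle-like parts cut from heart organoids (HOs) at day 13. According to the methods, HOs were grown from embryoid bodies of wild-type mouse embryonic stem cells on a laminin-entactin gel with FGF4, and BMP4, LIF and the Wnt activator BIO were added late in the culture, so both HO groups share these agents and both E11.5H groups lack them. No group carried a targeted allele. Beside the label C57BL/6, the methods name wild-type lines of C57BL/6 origin and of F1 hybrid origin (C57BL/6 with JF1), so the strain of the HOs rests on the label. Neither the labels nor the methods say which cell line each HO came from, how many hearts or HOs went into a library, or whether both parts numbered alike came from the same HO, so the p-values measure only the spread between these samples.

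T-box factors bind DNA through a shared domain and switch target genes on or off. Tbx5 is known as an activator in working chamber muscle, which beats forcefully and conducts fast, and Tbx20 is needed throughout the heart muscle. Tbx2 and Tbx3 are known as repressors that keep the atrioventricular canal and the later conduction system from taking on the chamber program, Tbx18 marks the sinus horns at the inflow and the epicardium, and Tbx1 acts in the pharyngeal progenitors of the outflow tract.

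In the coordinates of GRCm38/mm10 that the table gives, Tbx3 (chromosome 5 from 119670862 to 119684724, plus strand) and Tbx5 (chromosome 5 from 119834663 to 119885218, plus strand) lie 149.9 kb apart. Tbx2 (chromosome 11 from 85832615 to 85841948, plus strand) has Tbx4 as its neighbour at 44.4 kb. Tbx18 (chromosome 9 from 87702800 to 87731260) and Tbx20 (chromosome 9 from 24720812 to 24774303) are on the minus strand, as is Tbx1 (chromosome 16 from 18581704 to 18590671). Each row of the table joins the RefSeq transcripts of a gene, so the levels do not separate isoforms. Whether counting used the strand is not given in the sources used here. In the GENCODE annotation of the same build, Tbx3 overlaps the antisense gene Tbx3os1 by 504 bases and Tbx18 overlaps the transcript D030062O11Rik by 1976 bases, both on the other strand, so reads in these stretches cannot be told apart where strand was not used. Tbx3os2, the only row of the table named as an antisense partner of a member, overlaps no base of Tbx3 and had at most 22 fragments in a library.

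T-box proteins recognise the letters AGGTGTGA, and Nppa, the gene of atrial natriuretic factor, is a known target whose promoter holds them. RefSeq promoter windows of GRCm38.p6, which run from 250 bases before to 50 bases after a gene start, were found for 3 of the 6 members (Tbx1, Tbx18 and Tbx20). The 250 bases before the start are printed for Nppa, whose level is set beside the T-box levels, and for Tbx18 and Tbx20, the members with a window whose levels differ most between HOs and E11.5H. Capitals mark AGGTGTGA (TCACACCT on the other strand), the GATA-type letters GATAA and the Nkx2-5-type letters AAGTG, on either strand.
Nppa promoter, chr4:148000472-148000721, plus strand: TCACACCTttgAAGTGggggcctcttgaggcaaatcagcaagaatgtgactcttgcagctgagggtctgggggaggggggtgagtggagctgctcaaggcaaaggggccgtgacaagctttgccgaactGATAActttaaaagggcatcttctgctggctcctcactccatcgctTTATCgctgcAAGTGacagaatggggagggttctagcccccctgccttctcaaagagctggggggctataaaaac
Tbx18 promoter, chr9:87731261-87731510, minus strand: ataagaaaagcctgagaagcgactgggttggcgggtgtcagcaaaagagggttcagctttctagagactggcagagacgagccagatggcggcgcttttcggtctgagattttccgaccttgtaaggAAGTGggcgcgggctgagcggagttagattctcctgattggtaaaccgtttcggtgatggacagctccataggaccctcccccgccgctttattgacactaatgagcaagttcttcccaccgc
Tbx20 promoter, chr9:24774304-24774553, minus strand: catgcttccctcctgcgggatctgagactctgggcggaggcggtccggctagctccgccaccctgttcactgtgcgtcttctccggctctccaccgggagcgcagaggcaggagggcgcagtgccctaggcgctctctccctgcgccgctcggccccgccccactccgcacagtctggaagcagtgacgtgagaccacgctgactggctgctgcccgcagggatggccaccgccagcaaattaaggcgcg
The T-box letters stood in 1 of 8 chamber genes with a window, Nppa, which was known to hold them. There they began at the first base of the window, 250 bases before the start. They stood in none of the 3 members and in 1.48% of all 27025 genes with a window (1.28% of all 32851 windows). GATAA was found at 2 places in the Nppa window, in none of the member windows and in 25.4% of all windows. AAGTG was found in Nppa and Tbx18 and in 46.4% of all windows, so a match to these 5 letters is common. A match is a match of letters, and a window without one says nothing about binding of the factor.

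Depth was similar in all libraries, at 23971258 to 30540993 fragments assigned to genes, and 3 fragments, the limit that a count of 0 allows, correspond to 0.0982 to 0.125 CPM (counts scaled to equal library totals). The labelled tissue was checked against 16 cardiomyocyte genes. Their summed level was 7309 to 8266 FPKM (fragments per kilobase of transcript, scaled to library size) in E11.5H, 189 to 673 in the atrium-like libraries and 943 to 2603 in the ventricle-like ones, and none of the 16 was at 0 throughout a group. Muscle of the heart was therefore detected in every HO library, at a far lower level. The HO libraries also held RNA of other tissues: the summed level of 7 genes of visceral endoderm and liver was 566 to 11824 FPKM over the atrium-like libraries and 29.95 to 4207 over the ventricle-like ones, with at most 3.71 in E11.5H, and the skeletal muscle factor Myod1 was at 10.2 FPKM in atrium-like replicate 2 and 19.3 in ventricle-like replicate 2 and at 0 in the other 4 HO libraries. E11.5H atria held Myod1 too, at up to 3.42 FPKM. In such bulk samples fewer cells of a type and less RNA per cell cannot be told apart. Within a group the members varied little in E11.5H (coefficients of variation of 7.03 to 20.9% for the 5 members other than Tbx1) and much more in HOs (16.6 to 128%).

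**Figure D1:**
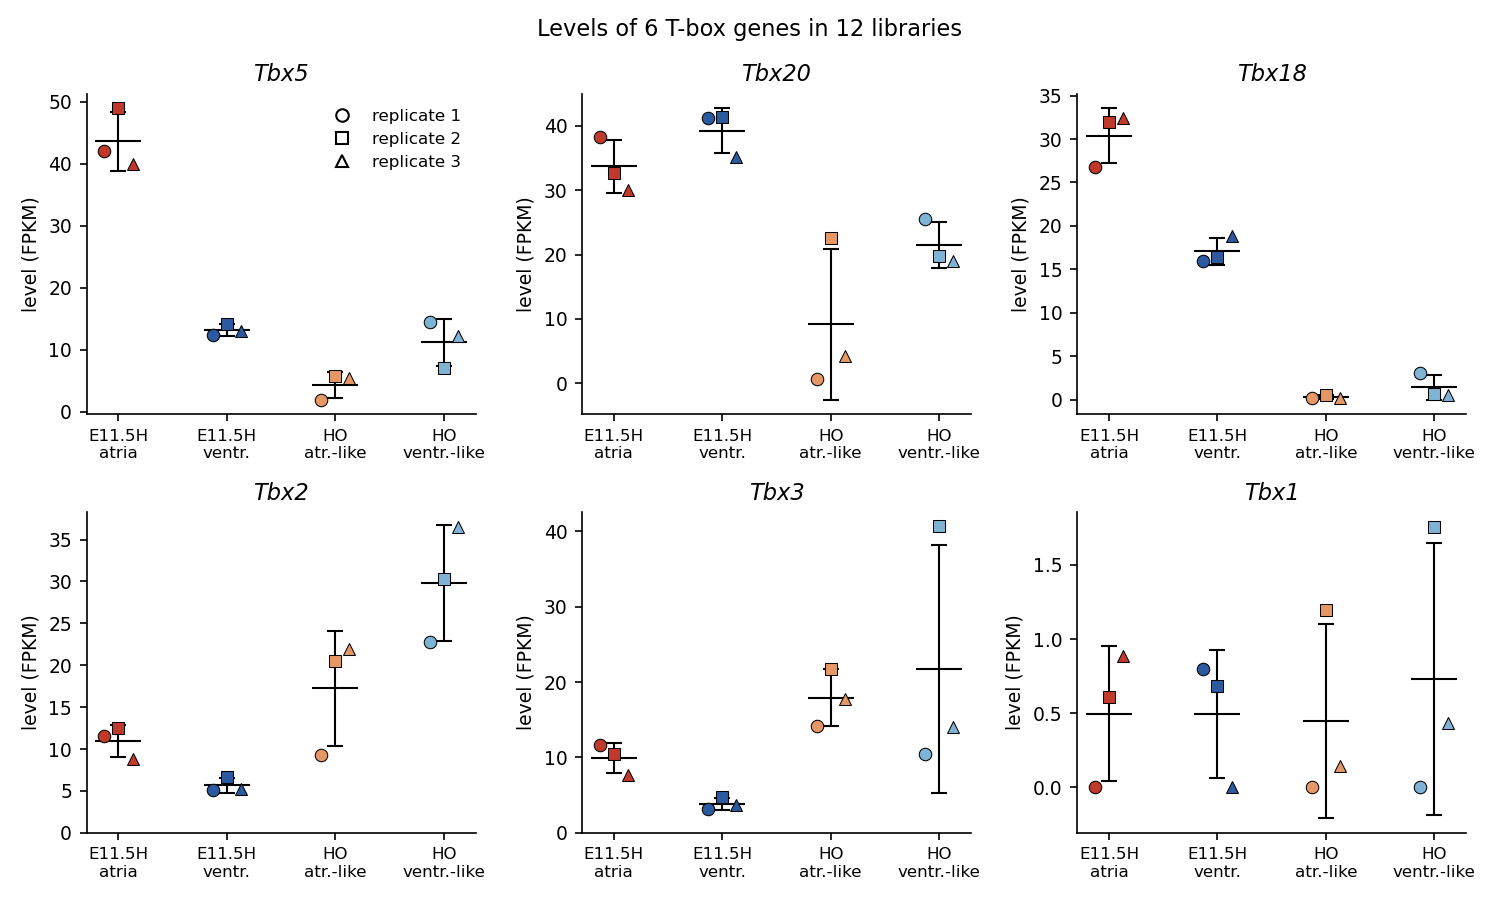
Level in FPKM (vertical axes) of each T-box gene in the 3 replicates of 4 groups, where symbols mark the replicate, long dashes the mean and bars the SD. Tbx5 and Tbx18 are lower and Tbx2 and Tbx3 are higher in most HO samples than in the matching E11.5H chamber, and Tbx1 is below 2 FPKM throughout. Scaling to cardiomyocyte genes would turn the sign for Tbx5.

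Atria of E11.5H carried more Tbx5, Tbx3, Tbx2 and Tbx18 than ventricles did, while Tbx20 overlapped between the chambers and Tbx1 was barely detected. A gene was called where the adjusted p was under 0.05 and the fold change exceeded 1 on the log2 scale in either direction, which were the limits of the study. Of the 6 members 2, Tbx5 and Tbx3, were called higher in atria and none lower, beside 4.9% of all 14536 genes tested in either direction, 2.92% higher and 1.97% lower. With no limit on the fold, 4 of 6 members passed (13.6% of all genes), and the FPKM values of the same 4 did not overlap between the chambers (33.1% of all genes). The median log2 fold change was 0.82 over the members and 0.01 over all genes.

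Tbx5, which is needed for growth of the atria and the left ventricle, had 42.0, 48.9 and 39.9 FPKM in the 3 atrial libraries and 12.3, 14.1 and 13.1 FPKM in the ventricular ones. Every atrial library was far above every ventricular one. On the log2 scale the difference was 1.66 (SE 0.093, adjusted p = 2.85e-06 by edgeR), a 3.15-fold difference, and it ranged from 1.58 to 1.71 as single libraries were left out.

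Tbx3, the repressor that shapes the nodes and the atrioventricular conduction axis, had 11.7, 10.4 and 7.71 FPKM in atria and 3.15, 4.72 and 3.66 FPKM in ventricles. The groups did not overlap, and the log2 fold change was 1.30 (SE 0.185, adjusted p = 0.00118 by edgeR). Tbx2, its close relative in the atrioventricular canal and outflow tract, had 11.52, 12.6 and 8.81 FPKM in atria and 5.08, 6.63 and 5.25 FPKM in ventricles, again without overlap. Its log2 fold change of 0.89 (SE 0.155, adjusted p = 0.00412 by edgeR) passed the p threshold and stayed under the fold limit, which it crossed at 1.02 without atrial replicate 3 and at 1.01 without ventricular replicate 2.

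Tbx18 had 26.8, 32.0 and 32.4 FPKM in atria and 15.9, 16.5 and 18.8 FPKM in ventricles. All atrial values were above all ventricular values, with a log2 fold change of 0.76 (SE 0.103, adjusted p = 8.97e-04 by edgeR), which is under the fold limit. The summed level of 8 other genes of the epicardium, the outer layer in which Tbx18 is also made, was likewise 304 to 319 FPKM in atria and 145 to 150 FPKM in ventricles, and the part of these cells in the Tbx18 difference was not tested.

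For Tbx20, which is needed throughout the heart muscle, the values were 38.2, 32.7 and 30.1 FPKM in atria and 41.3, 41.3 and 35.2 FPKM in ventricles. The ranges overlapped. The log2 fold change was -0.29 (95% interval -0.50 to -0.08, adjusted p = 0.0747 by edgeR), and it turned to 0.06 when libraries were scaled to equal cardiomyocyte genes. Tbx1 was listed at 0 in 1 library of each of the 4 groups, namely in atrial replicate 1 and ventricular replicate 3 of E11.5H and in replicate 1 of both HO parts, and at 0.14 to 1.76 FPKM (9 to 112 fragments) in the other 8 libraries. Depth was similar in all of them, and whether the zeros come from the counting was not tested. With this spread no chamber difference of Tbx1 was detectable.

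In the order of mean FPKM, atria had Tbx5 (43.6 ± 4.73, SD, n = 3), Tbx20 (33.7 ± 4.15), Tbx18 (30.4 ± 3.17), Tbx2 (10.96 ± 1.94), Tbx3 (9.93 ± 2.02) and Tbx1 (0.498 ± 0.453). Tbx20 and Tbx18, and Tbx2 and Tbx3, overlapped as neighbours. Ventricles had Tbx20 first (39.3 ± 3.496), then Tbx18 (17.1 ± 1.52), Tbx5 (13.2 ± 0.926), Tbx2 (5.65 ± 0.850), Tbx3 (3.84 ± 0.803) and Tbx1 (0.495 ± 0.432), and no 2 neighbours overlapped there. The lead thus belonged to Tbx5 in atria and to Tbx20 in ventricles.

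HO parts showed another order. In atrium-like parts Tbx3 (17.9 ± 3.81 FPKM, SD, n = 3) and Tbx2 (17.2 ± 6.88) came first, followed by Tbx20 (9.15 ± 11.7), Tbx5 (4.38 ± 2.11), Tbx1 (0.446 ± 0.653) and Tbx18 (0.278 ± 0.192). Among neighbours, Tbx5 alone was separate from the next below, Tbx1. In ventricle-like parts Tbx2 led (29.8 ± 6.88), followed by Tbx3 (21.7 ± 16.5), Tbx20 (21.4 ± 3.55), Tbx5 (11.2 ± 3.79), Tbx18 (1.39 ± 1.41) and Tbx1 (0.731 ± 0.916), where Tbx20, Tbx5 and Tbx18 were separate from one another and the other neighbours overlapped.

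Together Tbx2 and Tbx3 made up 10.5 to 17.8% of the summed FPKM of the 6 genes in the E11.5H libraries and 43.6 to 89.7% in the HO libraries. The ratio of Tbx2 plus Tbx3 to Tbx5 plus Tbx20 was 0.236 to 0.289 in E11.5H atria and 0.154 to 0.205 in E11.5H ventricles. It was 9.10, 1.49 and 4.09 in the 3 atrium-like libraries and 0.833, 2.64 and 1.62 in the ventricle-like ones. All HO values were above all E11.5H values, and the HO parts overlapped with each other. As a ratio within a library it does not depend on library scaling. It was highest in atrium-like replicate 1, which had the lowest cardiomyocyte sum (189 FPKM) and the highest endoderm sum (11824 FPKM). It was lowest among HOs in ventricle-like replicate 1, with a cardiomyocyte sum of 1490 FPKM. Ventricle-like replicate 3, with the highest cardiomyocyte sum among HOs (2603 FPKM), had 1.62. This was above the 1.49 of atrium-like replicate 2, with a sum of 673 FPKM. The part of other cell types in the ratio was not tested.

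**Figure D2:**
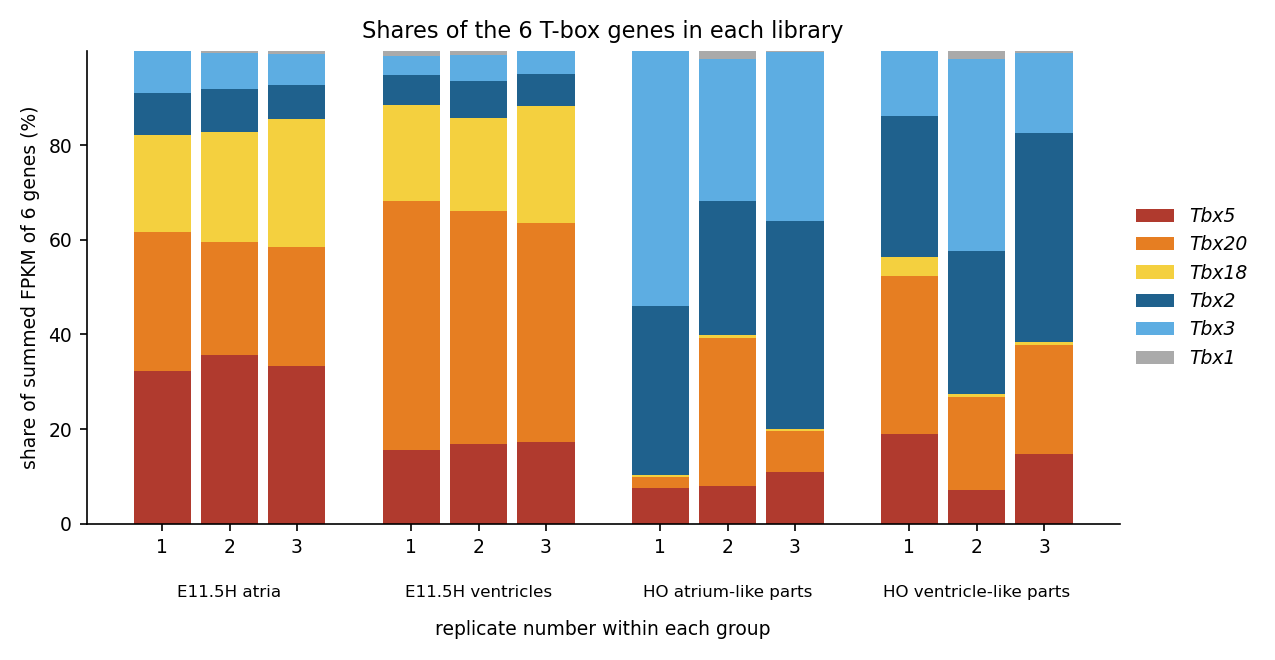
Share of each gene in the summed FPKM of the 6 T-box genes (vertical axis, percent) in each library, by group and replicate number. Tbx5, Tbx20 and Tbx18 fill most of the E11.5H bars, and Tbx2 and Tbx3 together fill 43.6 to 89.7% of the HO bars.

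Atrium-like parts of HOs carried far less Tbx18 than E11.5H atria, more Tbx3, and less Tbx5 except under a scaling to equal cardiomyocyte genes. Of the 6 members, Tbx3 was called higher and Tbx5 and Tbx18 were called lower, beside 24.8% of all 15418 genes in either direction. The same 3 passed with no limit on the fold (31.5% of all genes). FPKM did not overlap between the groups for 4 members, against 54.4% of all genes, so a lack of overlap is common in this comparison. The median log2 fold change was -0.97 over the members and 0.06 over all genes. Without the HO library with Myod1 the count of called members stayed at 3 (34.7% of all genes), but they were then Tbx5, Tbx18 and Tbx20.

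Tbx18 had 0.12, 0.49 and 0.22 FPKM (16, 78 and 34 fragments) in atrium-like parts, against 26.8 to 32.4 FPKM in atria. Every HO library was under 1 FPKM. The fitted log2 difference was -6.64 (SE 0.479, adjusted p = 0.00132 by edgeR), a 99.8-fold difference, and fell to -2.91 when libraries were scaled to cardiomyocyte genes.

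Tbx5 had 1.95, 5.78 and 5.41 FPKM in atrium-like parts, all far below the 39.9 to 48.9 FPKM of atria. Its log2 fold change was -3.18 (SE 0.369, adjusted p = 0.00352 by edgeR), but it turned to 0.53 under the scaling to cardiomyocyte genes, which raised the median of all genes to 4.03. Those genes were themselves called lower in 14 of 16 cases.

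Tbx3 had 14.2, 21.8 and 17.8 FPKM in atrium-like parts and up to 11.7 FPKM in atria, so the groups did not overlap. Its log2 fold change of 1.01 (SE 0.202, adjusted p = 0.0143 by edgeR) lay at the fold limit and ranged from 0.84 to 1.15 as single libraries were left out, and the call was lost without atrial replicate 2 or 3 or without atrium-like replicate 2 or 3. It was also lost with no filter on low counts, in the 3 limma fits on FPKM and with all 12 libraries in 1 fit. Tbx2 had 9.34, 20.5 and 21.9 FPKM and overlapped with atria through atrium-like replicate 1 (log2 fold change 0.80, adjusted p = 0.0879 by edgeR).

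Of the 5 members other than Tbx1, Tbx20 varied most relative to its mean, with 0.63, 22.5 and 4.30 FPKM in the 3 atrium-like libraries. All were below the 30.1 FPKM of the lowest atrial library. The lowest value was in replicate 1, in which the cardiomyocyte genes were also lowest at 189 FPKM and the endoderm genes highest at 11824 FPKM, and the highest was in replicate 2, with Myod1 and with 566 FPKM of endoderm genes; their part in the Tbx20 values was not tested. The log2 fold change was -1.84 (SE 1.02, adjusted p = 0.211 by edgeR), -3.59 (adjusted p = 0.0139) without atrium-like replicate 2, and 1.74 under the scaling to cardiomyocyte genes. Tbx1 overlapped between the groups (log2 fold change -0.11).

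Ventricle-like parts carried more Tbx2 and Tbx3 and less Tbx18 than E11.5H ventricles, and the values of Tbx5 overlapped. Tbx2 and Tbx3 were called higher and Tbx18 lower, 3 of 6 members, beside 18.9% of all 15094 genes in either direction. With no limit on the fold 4 members passed (29.6% of all genes), the fourth being Tbx20, and FPKM did not overlap for these 4 (50.7% of all genes). The median log2 fold change was 0.08 over the members and 0.09 over all genes. Without the HO library with Myod1 the count stayed at 3 (21.3% of all genes). It fell to 1 without ventricular replicate 1 or 2 (7.54 and 7% of all genes), and to 2 without ventricular replicate 3 (7.57%). Tbx3 and Tbx18 lost their calls without any 1 of these libraries, and without replicate 3 Tbx20 gained one (-1.03, adjusted p = 0.0358 by edgeR).

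Tbx2 had 22.7, 30.3 and 36.5 FPKM in ventricle-like parts, all above the 5.08 to 6.63 FPKM of ventricles. On the log2 scale the rise was 2.30 (SE 0.210, adjusted p = 0.00198 by edgeR), a 4.94-fold difference, and ranged from 2.10 to 2.45 as single libraries were left out.

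Tbx3 had 10.5, 40.7 and 14.0 FPKM in ventricle-like parts and at most 4.72 FPKM in ventricles. All HO values were higher, and that of replicate 2, the library with Myod1, was the highest of all 12 libraries. The log2 fold change was 2.39 (SE 0.531, adjusted p = 0.0214 by edgeR) and was 1.61 without that library.

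Tbx18 had 3.02, 0.62 and 0.53 FPKM in ventricle-like parts against 15.9 to 18.8 FPKM in ventricles. Replicate 1 was the highest of the HO libraries, as it was for the epicardial factor Wt1, at 16.6 FPKM against 0.226 to 2.31 FPKM in the other 5. Of the 8 listed epicardial genes, Aldh1a2, Sema3d, Upk1b and Upk3b were also highest there. Among HOs Tcf21 (25.5 FPKM) and Aldh1a1 (33.5 FPKM) were instead highest in atrium-like replicate 1, and Msln (88.2 FPKM) in ventricle-like replicate 3. For Tbx18 the log2 fold change was -3.70 (SE 0.749, adjusted p = 0.0166 by edgeR). It was -5.01 without ventricle-like replicate 1, and -0.78, not called, under the scaling to cardiomyocyte genes. The part of epicardial cells was not tested.

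For Tbx5 the ventricle-like values of 14.4, 7.03 and 12.2 FPKM spanned those of ventricles, with a log2 fold change of -0.32 (95% interval -0.99 to 0.36, adjusted p = 0.419 by edgeR), and of 2.50 under the scaling to cardiomyocyte genes, which raised the median of all genes to 3.05. Tbx20 had 25.5, 19.8 and 19.0 FPKM, all below ventricles, with a log2 fold change of -0.96 (adjusted p = 0.00763 by edgeR) just under the fold limit, which turned to 1.98 under that scaling. Tbx1 overlapped (log2 fold change 0.47).

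**Figure D3:**
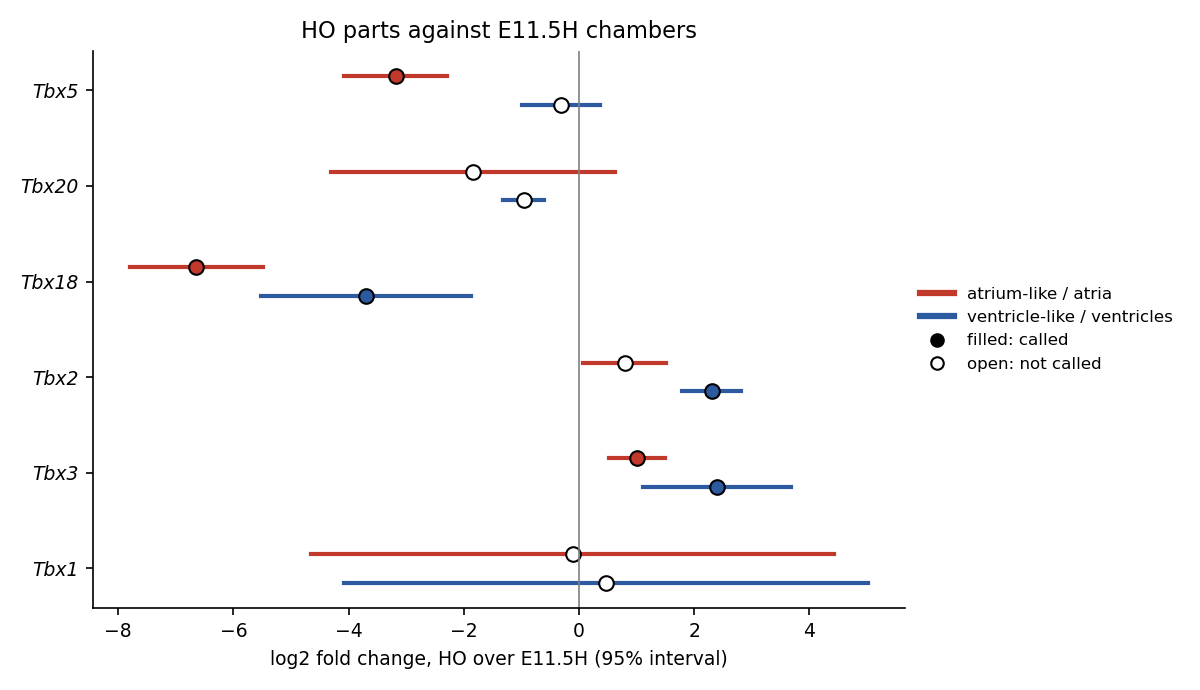
Log2 fold change of each gene (horizontal axis) in atrium-like parts over atria and in ventricle-like parts over ventricles, with the 95% interval of the edgeR fit; filled points were called. Tbx18 is lower in both HO parts and Tbx3 higher in both, and scaling to cardiomyocyte genes turned the sign of Tbx5 and Tbx20 in both comparisons and of Tbx1 in the atrial one.

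Between the parts of HOs no member was called, as was no gene of 15703 (0% called) by edgeR or by limma on FPKM. With libraries scaled to cardiomyocyte genes edgeR called 1130 genes (7.2%), 1109 higher and 21 lower in the atrium-like part, and no member. At an unadjusted p under 0.05 edgeR counted 889 genes and 2 members (Tbx5 and Tbx18), and DESeq2 called 59 genes, none of them a member. FPKM of 3 members, Tbx2, Tbx5 and Tbx18, did not overlap, with the atrium-like part lower (a scaling to cardiomyocyte genes turned Tbx2 and Tbx5), against 13.3% of all genes in either direction. The median log2 fold change was -0.95 over the members and -0.03 over all genes.

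Tbx5 was at 1.95 to 5.78 FPKM in the atrium-like libraries and 7.03 to 14.4 FPKM in the ventricle-like ones, with a log2 fold change of -1.24 (95% interval -2.32 to -0.16, adjusted p = 0.750 by edgeR). Tbx18 was at 0.12 to 0.49 FPKM against 0.53 to 3.02 FPKM (log2 fold change -2.24, interval -4.48 to -0.000607), and -0.93 without ventricle-like replicate 1. Tbx2 was at 9.34 to 21.9 FPKM against 22.7 to 36.5 FPKM (log2 fold change -0.65, interval -1.41 to 0.12), and its groups did overlap in CPM with TMM factors, where atrium-like replicate 3 had 97.7 and ventricle-like replicate 1 had 92.3 CPM. Tbx3 overlapped widely (log2 fold change -0.11, interval -1.33 to 1.12), as did Tbx20 (-1.21, interval -3.71 to 1.28) and Tbx1 (-0.69, interval -5.78 to 4.41).

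The summed cardiomyocyte genes were also lower in every atrium-like than in every ventricle-like library. When libraries were scaled to them, the log2 fold changes of Tbx2, Tbx3 and Tbx5 turned to 0.61, 0.97 and 0.06, beside a median of 1.36 over all genes, and those of Tbx18, Tbx20 and Tbx1 stayed below 0.

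Set side by side, the chamber difference of Tbx2, Tbx5 and Tbx18 ran opposite ways in E11.5H and HOs: the atrial samples were all above the ventricular ones in the embryo, and all below them in HOs, where Tbx2 and Tbx5 turned under the scaling to cardiomyocyte genes. Of all 16494 genes 2.39% had such opposite orders without overlap in FPKM. The interaction of chamber and tissue, fitted over 12 libraries, was -2.89 for Tbx5 on the log2 scale (95% interval -3.96 to -1.81, adjusted p = 0.0651 by edgeR), -2.96 for Tbx18 (interval -4.90 to -1.02, adjusted p = 0.262) and -1.53 for Tbx2 (interval -2.38 to -0.67, adjusted p = 0.212). It was -1.39 for Tbx3, -0.89 for Tbx20 and -0.58 for Tbx1. No member was called by edgeR (0.152% of all genes were, 0.0243% with a positive and 0.127% with a negative value, and 1928 genes had an unadjusted p under 0.05), while DESeq2 called Tbx2, Tbx5 and Tbx18 among 455 genes (2.76% of all) and limma on FPKM called Tbx5 among 45 to 89 genes (0.273 to 0.54%). Without the 2 HO libraries with Myod1 edgeR called Tbx5 (adjusted p = 0.0157) among 276 genes (1.66%), and it also called Tbx5 without atrium-like replicate 1 or 2 or without ventricle-like replicate 2 alone.

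**Figure D4:**
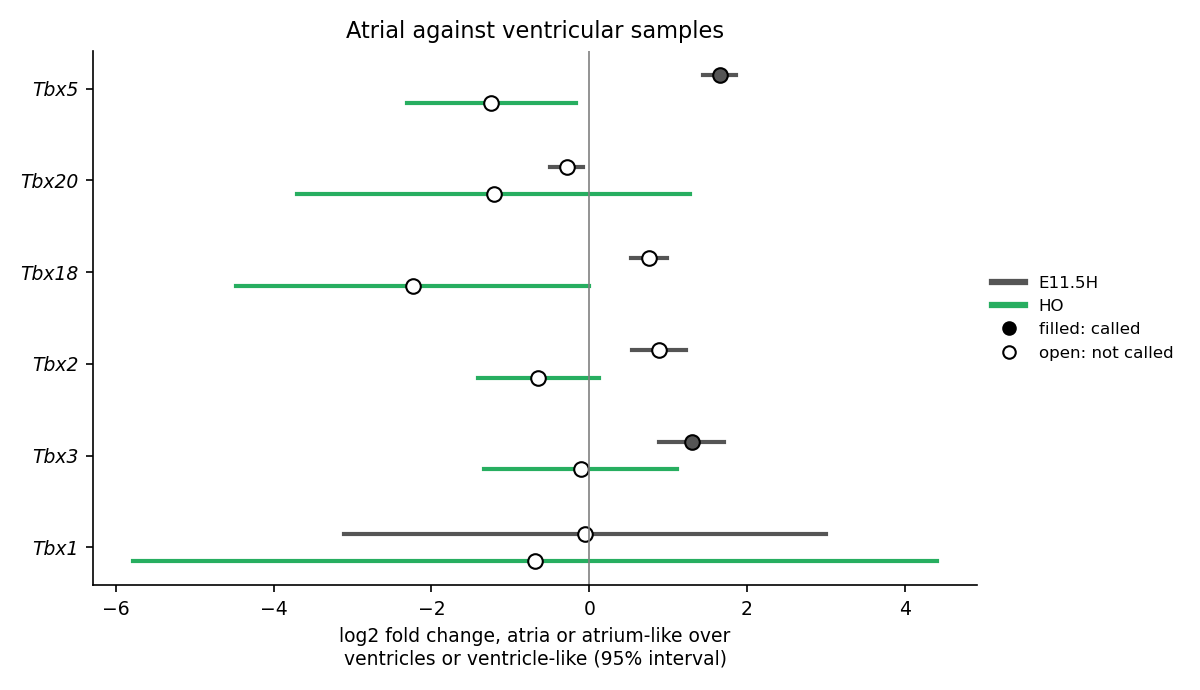
Log2 fold change of each gene (horizontal axis) in atrial over ventricular samples of E11.5H and of HOs, with the 95% interval of the edgeR fit; filled points were called. In E11.5H Tbx5, Tbx18, Tbx2 and Tbx3 lie above 0, and in HOs all 6 points lie at or below 0, where scaling to cardiomyocyte genes turned the sign of Tbx5, Tbx2 and Tbx3.

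The list of working chamber myocardium, 10 genes that include known T-box targets such as Nppa and Gja5, was mostly lower in HOs. Of the 10, 8 were called lower in atrium-like parts (8.81% of all genes) and 6 in ventricle-like parts (7.35%), and none was called higher. The medians were -5.76 and -4.47 on the log2 scale, and -1.34 and -1.54 under the scaling to cardiomyocyte genes. Nppa had 1925 to 3058 FPKM in the 6 E11.5H libraries and 0.53, 1.06 and 2.43 FPKM in the atrium-like libraries and 4.01, 3.42 and 8.75 FPKM in the ventricle-like ones. Every HO value was under 9 FPKM. Gja5, the fast gap junction protein connexin 40, had 39.6 to 66.9 FPKM in E11.5H and at most 1.59 FPKM in HOs, and Bmp10, a growth factor of trabecular muscle, had 4.88 to 15.1 FPKM in E11.5H and was listed at 0 in 4 of 6 HO libraries. By contrast Gja1 (connexin 43) was called in neither comparison, with log2 fold changes of 0.69 and -0.47. Scaled to cardiomyocyte genes, 3 of the 10 list genes lay above 0 in the atrial and 4 in the ventricular comparison. Nppa (-7.02 and -6.45), Gja5 (-3.62 and -2.11) and Bmp10 (-5.60 and -8.24) stayed below 0. Of the 16 cardiomyocyte genes 14 and 13 were called lower too, with medians of -3.21 and -2.21. The part of less heart muscle in the lower levels of this list was not tested.

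Between the chambers of E11.5H, 1 chamber gene was called higher in atria (2.92% of all genes), Myh6 (the fast myosin heavy chain, log2 fold change 1.57). Called lower were 3 (1.97% of all genes), namely Nppb (-1.71), Gja1 (-1.71) and Bmp10 (-1.50).

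Conduction genes were higher in atria of E11.5H in 5 of 10 cases and lower in none (2.92 and 1.97% of all genes). With all 12 libraries in 1 fit they were higher in 0 cases, beside 0.182% of all genes called in either direction. Gjd3 (a slow gap junction protein), Hcn4 (the pacemaker channel), Cpne5 and Cacna1d (a calcium channel of pacemaking) had log2 fold changes of 1.91, 1.51, 2.49 and 1.27, and Cntn2, a marker of Purkinje cells, was called at levels of only 0.053 to 0.136 FPKM in atria. In HOs against E11.5H, 5 of 10 were called lower in atrium-like parts, beside 8.81% of all genes (Hcn4, Cacna1d, Gjd3, Id2 and Cpne5), of which Hcn4, Cacna1d, Gjd3 and Id2 turned above 0 under the scaling to cardiomyocyte genes. In ventricle-like parts 3 were called higher (11.6% of all genes), Msx2, Cacna1g and Cntn2, and none lower. Without ventricular replicate 1 or 2, 1 was called higher, beside 7.54 and 7% of all genes in either direction. Over the 10 genes 5 had a positive log2 fold change, with a median of 0.22 beside 0.09 over all genes. Cntn2 was at 0.093 to 0.956 FPKM there and at most 0.0022 FPKM in ventricles. Msx2, a factor of the atrioventricular canal, had 17.0, 26.8 and 22.04 FPKM in ventricle-like parts against 5.64 to 7.92 FPKM in ventricles (log2 fold change 1.57, adjusted p = 0.00632 by edgeR). In atrium-like parts against atria Msx2 was not called (log2 fold change 0.69).

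Of 8 genes of the sinus horns and sinus node, a list that includes Tbx18 itself, 5 were called higher in atria of E11.5H (2.92% of all genes) and none lower. Shox2, a factor of the sinus node, had 12.7 to 15.3 FPKM in atria and at most 0.093 FPKM in ventricles (log2 fold change 7.34). Vsnl1 (6.68), Smoc2 (3.55) and Hcn4 were among the others. Against E11.5H atria, 5 of 8 were called lower in atrium-like parts (8.81% of all genes), Tbx18 among them, and Hcn4 and Smoc2 of these turned above 0 under the scaling to cardiomyocyte genes. Against ventricles, 3 of 8 were called higher and 1 lower in ventricle-like parts (11.6 and 7.35% of all genes). Shox2 and Vsnl1 were among those called higher, with log2 fold changes of 4.90 and 3.56, and Tbx18 was the 1 gene called lower. The interaction of chamber and tissue was called for 5 of 8 genes, all negative, among them Shox2 (-8.94), Vsnl1 (-10.19), Hcn4 (-3.97) and Smoc2 (-3.60), beside 0.152% of all genes, the sign that Tbx5 (-2.89) and Tbx18 (-2.96) also had without being called. Calls over all genes also became fewer in other fits. Without any 1 of the 6 E11.5H libraries 1 or 2 of the 8 were called, beside 0.0117 to 0.0351% of all genes. With the replicate block 2 were called (0.0303% of all genes), and 2 with the scaling to cardiomyocyte genes (0.0728%).

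Epicardial genes other than Tbx18 were called higher in atria of E11.5H in 3 of 8 cases (2.92% of all genes), Aldh1a2 (1.67), Sema3d (1.26) and Upk1b (1.21). With all 12 libraries in 1 fit 0 were, beside 0.182% of all genes in either direction. Against atria, 6 of 8 were called lower in the atrium-like samples and 2 higher (8.81 and 16% of all genes). These became 3 and 0 without any 1 atrial library, beside 10.3 to 10.8% of all genes in either direction. The median of the 8 turned from -2.53 to 1.26 under the scaling to cardiomyocyte genes. In ventricle-like parts 1 was called higher than in ventricles, Msln, and none lower (11.6 and 7.35% of all genes). Upk3b, a marker of the mesothelial layer, had 47.2, 0.135 and 19.7 FPKM in ventricle-like parts against 68.9 to 74.6 FPKM in ventricles. Wt1, Tcf21, Aldh1a2 and Sema3d were below all ventricular libraries in ventricle-like replicates 2 and 3. In replicate 2 Upk3b, Upk1b and Aldh1a1 were below them too, and Msln was within their range. In replicate 3 Upk3b was below them, while Upk1b (36.1 FPKM), Aldh1a1 (10.2 FPKM) and Msln (88.2 FPKM) were above, so the list did not move as one there.

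Of 11 genes of the second heart field and outflow tract, in which Tbx1 and Tbx2 act, 10 were tested. Eya1 was called higher in atria of E11.5H (log2 fold change 1.92), beside 2.92% of all genes. Sema3c (-2.33), a guidance factor of outflow muscle, and Rgs5 (-2.52) were called lower, beside 1.97% of all genes. In HOs none was called in atrium-like parts against atria (24.8% of all genes in either direction). In ventricle-like parts against ventricles 1 was called higher and 0 lower (11.6 and 7.35% of all genes). Fgf8, a known partner of Tbx1 in this field, was at 0 in all atrium-like libraries and at most 0.189 FPKM anywhere.

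**Figure D5:**
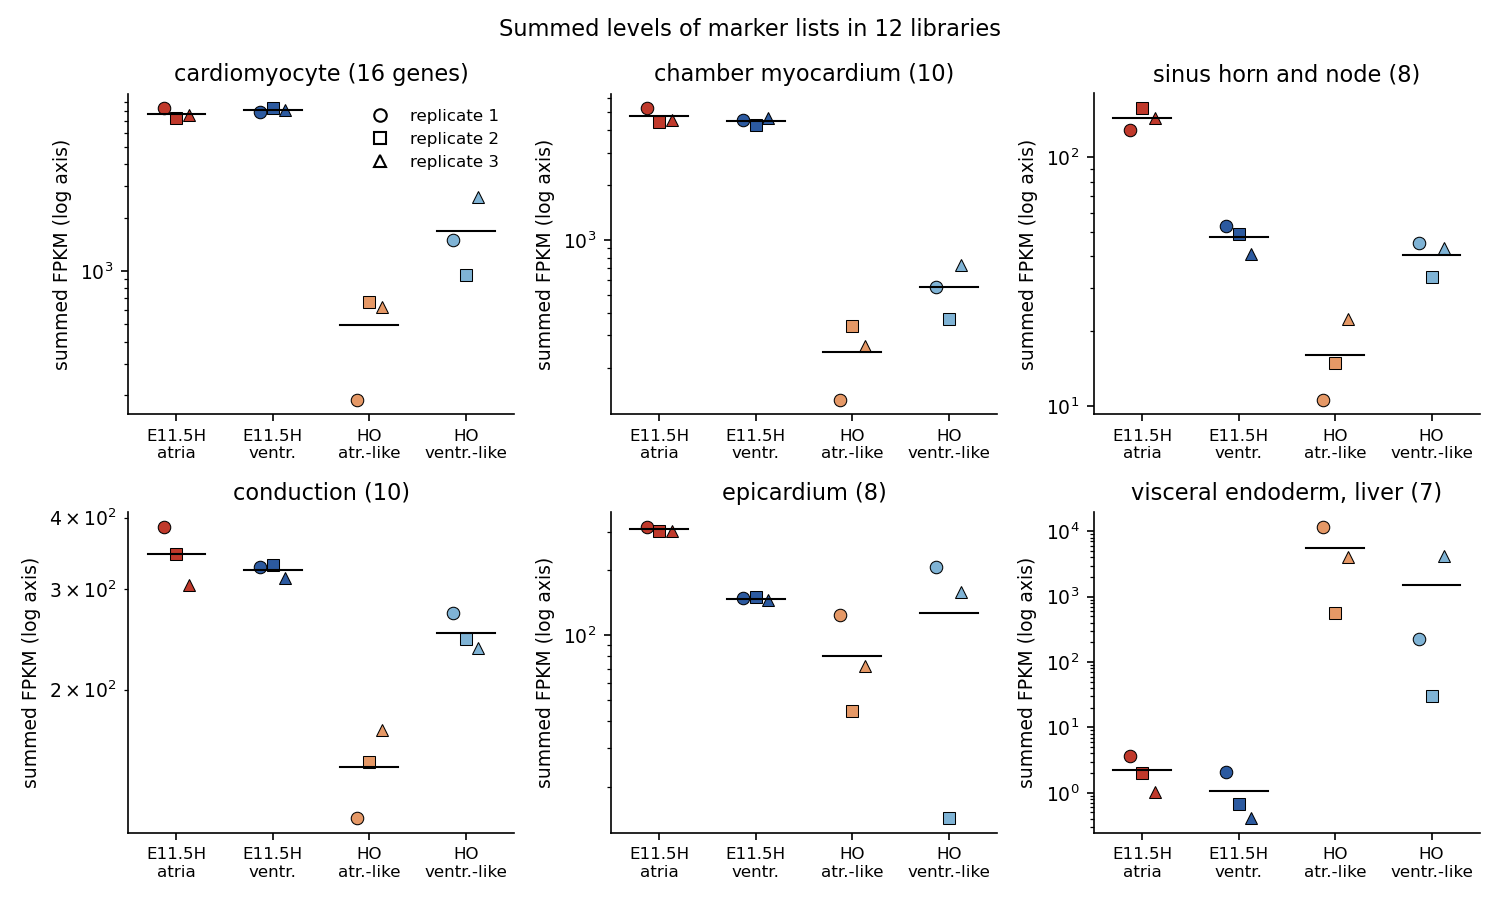
Summed FPKM (vertical axes, log scale) of 6 marker lists in the replicates of the 4 groups, with symbols for replicates and lines for means. Cardiomyocyte and chamber genes are lower in every HO library than in E11.5H, sinus and conduction genes are lowest in atrium-like parts, and endoderm genes are high in HOs.

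Factors that act together with cardiac T-box proteins were tested as a list of 10. In E11.5H 2 of them were called lower in atria (1.97% of all genes), Hand1 (-6.30), a factor of the left ventricle, and Sall4. Sall4 was at 2.30 to 2.83 FPKM in ventricles and 0 to 0.018 FPKM in atria. Against atria, 3 of the 10 were called lower and 2 higher in atrium-like parts (8.81 and 16% of all genes). Against ventricles, 3 were called lower and 0 higher in ventricle-like parts (7.35 and 11.6% of all genes). Nkx2-5, the core homeodomain factor of heart muscle, had 78.3 to 93.4 FPKM in E11.5H, 2.34, 3.90 and 10.1 FPKM in the atrium-like libraries and 11.504, 8.11 and 36.1 FPKM in the ventricle-like ones. It was called lower in both HO parts (-3.77 and -2.35), as was Mef2c (-1.96 and -1.43), though scaling to cardiomyocyte genes turned Mef2c in both and Nkx2-5, itself 1 of those genes, in the ventricular one. Gata5 was called lower in atrium-like parts (-2.81, turned to 1.06 by that scaling). Hand1 was called higher in atrium-like parts against atria (5.05) and lower in ventricle-like parts against ventricles (-1.62, turned to 1.27), and Sall4 was called higher in the former contrast. Under the same contrasts Tbx20 was not called and Tbx5 was called in the atrial one.

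Among the 11 other T-box genes of the mouse, Mga was the 1 with a group mean of at least 1 FPKM, at 3.56 to 6.76 FPKM in all 12 libraries and called in no comparison. Eomes was called higher in atria than in ventricles of E11.5H, at levels of 0.0995 to 0.352 and 0 to 0.0084 FPKM, and did not exceed 0.956 FPKM in any library. Tbx19 was at 0 throughout.

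The genes whose profiles over the 12 libraries were most like those of the members were named by the root mean square difference of log2 CPM centred on its mean, among 13367 genes that varied by at least 1. Nearest to Tbx5 were Gucy1a1 (0.32), Tmem163 (0.35) and Rgs12 (0.38). Nearest to Tbx2 were Slc5a3 (0.24), Ampd3 (0.28) and Nrbp2 (0.32), and nearest to Tbx3 were Chn2 (0.35), Slc5a3 (0.41) and Fmnl2 (0.44), so that 1 gene appeared for both. For Tbx20 they were Cpa4 (0.31), Cdh2 (0.37) and Art3 (0.42), for Tbx18 Pkhd1l1 (0.63), Itgb1bp2 (0.70) and Cnn1 (0.73), and for Tbx1 Adra2c (1.03), Cntn3 (1.37) and Slc26a7 (1.40). Among the members themselves the closest pair was Tbx2 and Tbx3 (0.55), followed by Tbx5 and Tbx20 (1.09). The 12 points share 4 groups and their depths, and likeness over them is a description.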

How the data were processed

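RNA of dissected E11.5H chambers and HO parts was sequenced as 12 libraries made with a TruSeq RNA kit, per the labels. The authors mapped reads to GRCm38/mm10 with STAR and deposited expected counts per gene and FPKM; versions, counting tool and strand use are not given in the sources used here. Of the deposited expected counts 23.8% were not whole. The deposited FPKM values are counts divided by transcript width and 1 total per library. In 1050 names a number marks a repeated locus, none of them a member. Levels are given in FPKM. Expected counts were rounded and fitted by the quasi-likelihood method of edgeR 4.0.16 under R 4.3.3, after filterByExpr at its minimum of 10 counts and TMM scaling, with p-values adjusted by Benjamini-Hochberg over all genes tested, within each pair of groups, and for the interaction over 12 libraries. Standard errors and 95% intervals are of that fit. Alternatives were DESeq2 1.42.0, limma 3.58.1 on log2(FPKM + 1) and log2(FPKM + 0.1), other filters and scalings (one to equal summed levels of 16 cardiomyocyte genes), a replicate block and leaving out libraries. The code was tested on simulated counts. Gene lists describe known roles; members and lists were chosen with earlier results of these data known. List genes are named where called in the E11.5H chambers or the interaction (at most 6 a list), and partner factors where called anywhere. Also named are other T-box genes from 1 FPKM and the 3 most alike genes of each member. Nppa, Gja5, Msx2, Wt1, Upk3b, Tcf21, Aldh1a1, Fgf8, Msln, Id2, Cacna1g, Eomes, Tbx19 and Myod1 were added after their values were seen. Some genes of the lists are not reported here by name. Floors cover counting error only. Plots used matplotlib 3.10.9 in Python 3.11.15.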

Additional observations from a re-analysis of the deposited data

Results flagged for a closer look

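Tbx2, Tbx5 and Tbx18 differed in the direction of their chamber difference between E11.5H and HOs: in FPKM every atrial library of E11.5H was above every ventricular one, and every atrium-like library of HOs was below every ventricle-like one. The test of this difference, the interaction of chamber and tissue, gave -1.53 for Tbx2 (edgeR adjusted p = 0.212), -2.89 for Tbx5 (edgeR adjusted p = 0.0651) and -2.96 for Tbx18 (edgeR adjusted p = 0.262) on the log2 scale, so none passed correction. In CPM with TMM factors Tbx5 and Tbx18 kept both orders, and Tbx2 overlapped in HOs. Of all 16494 genes 2.39% had opposite orders without overlap in FPKM. Scaling to cardiomyocyte genes turned the HO difference of Tbx2 to 0.61 and that of Tbx5 to 0.057.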

How the results depend on the processing

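Of 509 member fold changes under alternatives, 441 kept their sign and side of the threshold, 19 lost and 20 gained a call, and 29 changed sign, 18 of them of Tbx1. The 24 log2 ratios of mean levels moved by less than 1 SD in CPM with TMM factors. Called members in E11.5H numbered 2 (4.9% of all genes), and 0 with all 12 libraries in 1 fit (0.182%), which pools the wider spread of HOs. They numbered 4 with no fold limit (13.6% of all genes) and 4 scaled to cardiomyocyte genes (8.58%). In atrium-like parts against atria they numbered 3 (24.8% of all genes). They numbered 2 with no low-count filter (18.7%), in the 3 limma fits (14.6 to 28.2%) and with all 12 libraries in 1 fit (26.6%). When 1 library was left out they numbered 2 to 4 (10.3 to 34.7%). In ventricle-like parts against ventricles they numbered 1 to 4 (7 to 23.9% of all genes), and in the interaction 0 to 1 (0.0117 to 1.27%), when 1 library was left out. In the interaction DESeq2 called 3 (2.76% of all genes) and limma 1 with either pseudocount or no filter (0.273 to 0.54%). There edgeR called 1 without the HO libraries with Myod1 (1.66%), an alternative chosen after seeing the data. The cause was not tested.

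Scaling to cardiomyocyte genes shifted the median of all genes to 0.37 in E11.5H, 1.36 in HOs, 4.03 in atrium-like parts against atria, 3.05 in ventricle-like parts against ventricles and 0.99 in the interaction. It turned Tbx1 to 0.33 and Tbx20 to 0.059 in E11.5H; Tbx2 to 0.61, Tbx3 to 0.97 and Tbx5 to 0.057 in HOs; Tbx1 to 3.39, Tbx5 to 0.53 and Tbx20 to 1.74 in the atrial and Tbx5 to 2.50 and Tbx20 to 1.98 in the ventricular comparison with E11.5H. With libraries left out Tbx1 ranged from -0.77 to 0.53 in E11.5H, from -3.11 to 1.01 in HOs, from -2.57 to 0.60 and from -1.20 to 1.02 in the comparisons with E11.5H and from -3.03 to 1.06 in the interaction, and Tbx3 from -0.42 to 0.69 in HOs. Without the HO libraries with Myod1 Tbx3 was 0.59 in HOs and Tbx1 was -1.20 in ventricle-like parts against ventricles. By limma on log2(FPKM + 1), with or without a filter, Tbx1 was 0.00049 in E11.5H.

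Same-numbered parts of HOs deviated from their group means with correlations of 0.017, 0.589 and 0.36, and atrium-like replicate 1 correlated best with ventricle-like replicate 3 (0.436), so the numbers were not taken as pairs. With the replicate block Tbx3 was 0.14 in HOs and Tbx1 was 1.85 in the interaction. The counts of called members were 2, 0, 3, 3 and 0, as without the block, beside 4.27, 0, 18.2, 13.3 and 0.0303% of all genes. With 3 samples a group and a biological coefficient of variation of 0.677 in HOs against 0.211 in E11.5H, the HO comparison detects large differences at best.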
